A study of Mus musculus with 6 samples.

Results

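Imprinted genes are genes whose maternal and paternal copies are expressed unequally, and 37 of them were described here in lung endothelial cells, the cells that line blood and lymph vessels. They were taken from the deposited table of 23793 rows as every row whose symbol, or one of its comma-joined symbols, was a member of the list, and no symbol was repeated. All 37 had a mean above 0. A mean over the 6 libraries of at least 1 FPKM (a level in fragments that is corrected for the length of the transcript and the size of the library) was reached by 28, and the other 9 lay below it. These 28 were selected on their mean level over all libraries, so that level is given as a description. Of all rows in the table, 11693 reached a mean of 1 FPKM and were tested.

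Endothelial cells were sorted by fluorescence from mouse lungs on postnatal day 7 and their poly(A) RNA was sequenced, in 3 libraries of control and 3 of mutant lungs, lettered A, B and C in each group. The titles name Vegfa and Shh for both groups, the series title speaks of Vegfa from the epithelium, and the strain background of all 6 is given as mixed. The alleles carried by each group are not spelled out in the sources used here, nor whether a library came from 1 animal or several. In mouse lung work the Shh locus is commonly used to drive a recombinase in the epithelium, so the sorted cells are neighbours of the cells named in the title. The comparison asks how the transcripts of lung endothelium differ between mutant and control.

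Imprinting is set in the germ line, where DNA methylation is laid down on control regions in eggs or in sperm and is then kept through the divisions of the embryo. Most imprinted genes lie in clusters, and a long noncoding RNA or an insulator in the cluster decides which copy is silent. At the pair H19 and Igf2 the factor CTCF binds the unmethylated maternal control region, so that distal enhancers act on H19 there and on Igf2 on the paternal chromosome. Many imprinted genes act in fetal growth, are high in the fetus and are turned down in many organs after birth. FPKM adds both parental copies, so nothing here tells which copy was expressed, and it does not tell fewer cells of a type from less RNA per cell.

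The 37 members lie on 10 chromosomes, 14 of them on chromosome 7, and 6 are long noncoding RNAs. Positions are those of RefSeq on GRCm38, the build that mm10 names. H19 (chromosome 7, 142575530 to 142578146, minus strand, 5 exons) and Igf2 (142650768 to 142666816, minus strand) are separated by 72621 bases. The first exon of H19 holds the hairpin of miR-675 (142577064 to 142577147), whose 2 mature forms are shown because they are cut from the transcript that differed most between the groups among the members. They are given 5′ to 3′ from RefSeq on GRCm38, with the seed, bases 2 to 8, in capitals. The 2 seeds differ from each other, and the mature forms themselves were not measured in these libraries.
mmu-miR-675-5p: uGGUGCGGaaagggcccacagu
mmu-miR-675-3p: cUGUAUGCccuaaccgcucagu

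RefSeq start site windows, running from 250 bases before to 50 bases after a start, were matched by symbol for 31 of the 37 members, which have 50 windows between them. Shown here are windows of Igf2, of Peg3 and Zim1, which are neighbours, of Meg3 and of Nnat. These genes are among the 8 members with a log2 fold change of at least 0.3 in size. No window is shown for H19, Airn and Ppp1r9a, which also belong to the 8. The windows shown are a choice, and motif shares over all member windows are given below. Capitals mark TGCCGC, the core bound by the imprint-keeping factor ZFP57, GGGGCCCC, a palindrome bound by PLAGL1, and TATAAA, each searched on both strands, so that a match on the other strand reads GCGGCA or TTTATA. The windows are 5′ to 3′ on the strand of the gene. Igf2 has 4 windows; the one nearest its coding end (chr7:142657447-142657746) held none of the motifs and the next one shown (chr7:142661222-142661521) held TGCCGC.
Igf2, near window: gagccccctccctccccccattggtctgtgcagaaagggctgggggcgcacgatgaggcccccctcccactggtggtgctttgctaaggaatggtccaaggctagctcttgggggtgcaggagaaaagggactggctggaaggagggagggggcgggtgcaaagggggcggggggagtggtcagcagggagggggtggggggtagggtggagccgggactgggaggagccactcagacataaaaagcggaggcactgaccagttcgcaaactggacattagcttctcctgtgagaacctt
Igf2, far window: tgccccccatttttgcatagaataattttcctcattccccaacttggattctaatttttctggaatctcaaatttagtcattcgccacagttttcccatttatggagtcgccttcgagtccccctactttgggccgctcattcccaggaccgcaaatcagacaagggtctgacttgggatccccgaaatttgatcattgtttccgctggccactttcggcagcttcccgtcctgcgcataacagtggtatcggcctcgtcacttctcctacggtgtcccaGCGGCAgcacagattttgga
Peg3: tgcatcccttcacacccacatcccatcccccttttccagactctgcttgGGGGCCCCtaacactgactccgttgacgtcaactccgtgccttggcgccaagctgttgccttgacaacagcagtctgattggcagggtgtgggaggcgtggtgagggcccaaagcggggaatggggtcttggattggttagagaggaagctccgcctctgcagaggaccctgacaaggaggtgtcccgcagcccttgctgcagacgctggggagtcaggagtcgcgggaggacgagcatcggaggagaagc
Zim1: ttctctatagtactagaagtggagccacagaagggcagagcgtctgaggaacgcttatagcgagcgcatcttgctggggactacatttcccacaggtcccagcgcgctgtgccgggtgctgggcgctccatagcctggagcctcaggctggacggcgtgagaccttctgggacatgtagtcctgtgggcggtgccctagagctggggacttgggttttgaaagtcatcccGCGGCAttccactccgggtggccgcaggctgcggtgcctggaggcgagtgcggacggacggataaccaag
Meg3: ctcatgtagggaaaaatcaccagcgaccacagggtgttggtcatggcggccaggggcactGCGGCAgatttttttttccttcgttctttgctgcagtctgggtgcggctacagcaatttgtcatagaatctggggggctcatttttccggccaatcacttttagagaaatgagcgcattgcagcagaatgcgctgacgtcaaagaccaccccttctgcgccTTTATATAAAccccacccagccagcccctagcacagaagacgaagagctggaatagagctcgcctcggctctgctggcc
Nnat: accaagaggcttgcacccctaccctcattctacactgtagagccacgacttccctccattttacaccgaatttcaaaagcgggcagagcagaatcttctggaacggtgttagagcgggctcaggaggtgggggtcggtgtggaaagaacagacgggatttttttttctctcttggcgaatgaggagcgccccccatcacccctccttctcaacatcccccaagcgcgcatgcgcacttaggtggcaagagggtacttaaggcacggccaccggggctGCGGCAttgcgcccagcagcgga

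The window of Peg3 (chr7:6730370-6730669) held GGGGCCCC, and it shares 263 of its 300 bases with the window of Usp29, which starts 96 bases away on the opposite strand, so both hold the same copy. The windows of Zim1 (chr7:6696383-6696682) and Nnat (chr2:157559828-157560127) held TGCCGC. The first of the Meg3 windows (chr12:109540746-109541045) held TGCCGC and a pair of overlapping TATAAA matches, 1 on each strand. TGCCGC was found in 11 of the 50 member windows (22%) and in 11.6% of all 32851 windows, GGGGCCCC in 3 (6%) and in 1.08%, and TATAAA in 11 (22%) and in 13.6%. The median number of CG dinucleotides per window was 13 for the members, with a range of 0 to 48, and 7 over all windows. Several windows belong to 1 gene, and a match is a description of the sequence and not a binding site.

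Relative depth, read from the steps between the lowest values, lay between 0.897 and 1.49 where control A is 1; total fragments are unknown. Libraries of one letter form a pair, and values of 3 libraries are always in the order A, B, C. The labels give no sex; in pair C the X-linked Xist stood at 0.0924 (control) and 0.071 FPKM (mutant) and the Y-linked Ddx3y at 24.4 and 26.2 FPKM, the pattern of male cells, while the other 4 libraries had Xist at 33.3 to 57.9 FPKM and Ddx3y at 0.0981 FPKM or less. All 15 pan-endothelial markers were above 1 FPKM and together summed to 8442 to 9274 FPKM in control and 7135 to 7835 FPKM in mutant libraries. Of the 15, 7 had a higher and 8 a lower mean in the mutant, and without Cldn5, a tight junction protein at 2190 ± 210 FPKM in the controls against 1069 ± 239 FPKM in the mutants (limma adjusted p = 0.288), the sums overlapped at 6344 to 6844 and 5885 to 7038 FPKM. Of 14 mesenchymal markers (fibroblast, pericyte and muscle genes such as Col1a1, Pdgfra and Acta2), 13 reached a mean of 1 FPKM; the sum of all 14 came to 1384, 4266 and 3723 FPKM in the controls against 934, 2744 and 2196 FPKM in the mutants. None of these markers was at 0, and their sum was lowest in the libraries of pair A and lower in the mutant within every pair. Epithelial markers, 8 in the list, summed to 116 to 266 FPKM in control and 37.8 to 133 FPKM in mutant libraries, with Epcam and Cdh1 under 1 FPKM on average. Of the 5 tested, 4 had a lower and 1 a higher mean in the mutant. Sftpc was at 83.6 ± 55 FPKM in the controls and 29.5 ± 17.1 FPKM in the mutants (limma adjusted p = 0.617). Hopx was at 59.5 ± 1.42 and 14.8 ± 8.07 FPKM, without overlap (limma adjusted p = 0.262). Leukocyte markers, also 8, summed to 8.88 to 39.9 and 5.46 to 36.2 FPKM, and Cd3e and S100a8 were at 0 in some libraries. Mesothelial markers, 5 in the list, summed to 16.8 to 53.9 and 12.7 to 46.6 FPKM, and 6 rows of erythroid and platelet markers to 87.2 to 307 and 33 to 90.6 FPKM, with Ppbp at 0 in mutant C.

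Expression of the members ranged over several orders of size. Gnas, which encodes the stimulatory G protein subunit, had the highest level, with a mean of 714 FPKM, followed by the tetraspanin Cd81 at 271 FPKM and Mest, a member of the hydrolase fold family, at 265 FPKM. Means of at least 10 FPKM were reached by 15 members, and 13 lay between 1 and 10 FPKM. The lowest of the 28 were Peg10, a gene derived from a retrotransposon, at 1.83 FPKM and Asb4, part of a ubiquitin ligase, at 1.88 FPKM, while Zdbf2 lay just below the limit at 0.961 FPKM.

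**Figure D1:**
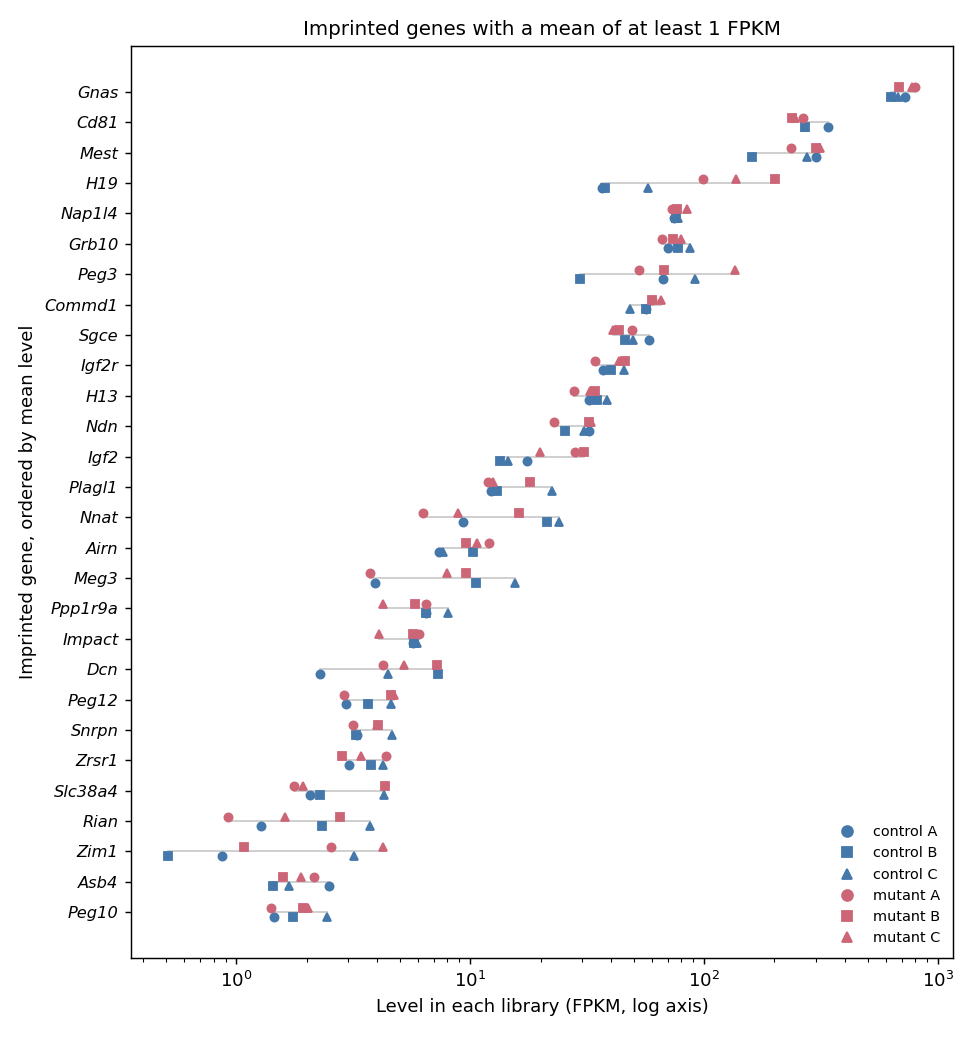
Level of the 28 imprinted genes with a mean of at least 1 FPKM in each of the 6 libraries (FPKM, log axis), ordered by mean; colours give the group, symbols the pair, and grey lines the range. Gnas stands highest with a mean of 714 FPKM and Peg10 lowest at 1.83 FPKM, and for H19 the 3 mutant libraries (99.3 to 201 FPKM) lie above the 3 controls (36.8 to 57.6 FPKM).

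H19, a long noncoding RNA expressed from the maternal copy and abundant in fetal tissues, stood at a higher level in every mutant library than in any control. It measured 36.8, 37.8 and 57.6 FPKM in the controls against 99.3, 201 and 137 FPKM in the mutants. The groups did not overlap, with means of 44.1 ± 11.8 FPKM (SD, n = 3) for the controls against 146 ± 51.2 FPKM for the mutants, a ratio of 3.3. Within pairs the ratio was 2.7 in A, 5.31 in B and 2.37 in C. The log2 fold change on the log2(FPKM + 1) scale was 1.67 ± 0.28 (SE), which did not pass the threshold over all rows (limma adjusted p = 0.211). By unadjusted p, H19 was row 36 of the 11693, and by the size of the increase it was row 23 of the 6385 rows with a higher mean in the mutant.

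The summed mesenchymal markers were lower in the mutant within every pair while H19 was higher. Mutant A, at 99.3 FPKM of H19, had the lowest marker sum of the 6 libraries, 934 FPKM. Among the mutants H19 rose with that sum, to 137 FPKM in C (sum 2196 FPKM) and 201 FPKM in B (sum 2744 FPKM). Among the controls H19 was highest in C and the sum in B. In pair B, Col1a1, Col1a2, Tcf21, Lum and Wnt2 were higher in the mutant and the other markers lower. Eln, among the lower ones, measured 2789 FPKM in control B and 1367 FPKM in mutant B. Of the markers, Lum and Wnt2 were higher in the mutant within every pair, although the sum was lower. With the mean level of all mesenchymal markers as a covariate the log2 fold change of H19 was 1.91 ± 0.20 (limma adjusted p = 0.0558). With the pair as a block it was 1.67 ± 0.24 (limma adjusted p = 0.152), and without any 1 library it lay between 1.41 and 1.92. The cause of the difference in H19 was not tested.

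Igf2, the fetal growth factor that acts through the receptors for IGF1 and insulin, was also higher in each mutant library than in any control. It measured 17.6, 13.4 and 14.5 FPKM in the controls against 28, 30.7 and 19.8 FPKM in the mutants. The means were 15.2 ± 2.16 and 26.2 ± 5.66 FPKM, a ratio of 1.73, with ratios within pairs of 1.6 in A, 2.29 in B and 1.36 in C. Both genes thus had their largest ratio in pair B. The log2 fold change of Igf2 was 0.74 ± 0.18, which did not pass either (limma adjusted p = 0.411), and it was row 144 by unadjusted p. With the mesenchymal covariate it was 0.71 ± 0.20 (limma adjusted p = 0.355).

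Igf2os, a transcript on the opposite strand that overlaps the upstream part of Igf2, was between 0.0212 and 0.241 FPKM in all libraries, and whether counting used the strand is not stated. The row of Mir483, a microRNA inside Igf2, was listed at 0 throughout. H19 exceeded Igf2 in every library. The ratio of the FPKM of H19 to that of Igf2 came to 2.09, 2.82 and 3.96 in the controls against 3.54, 6.54 and 6.9 in the mutants, so it was higher in the mutant within each pair while the groups overlapped.

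**Figure D2:**
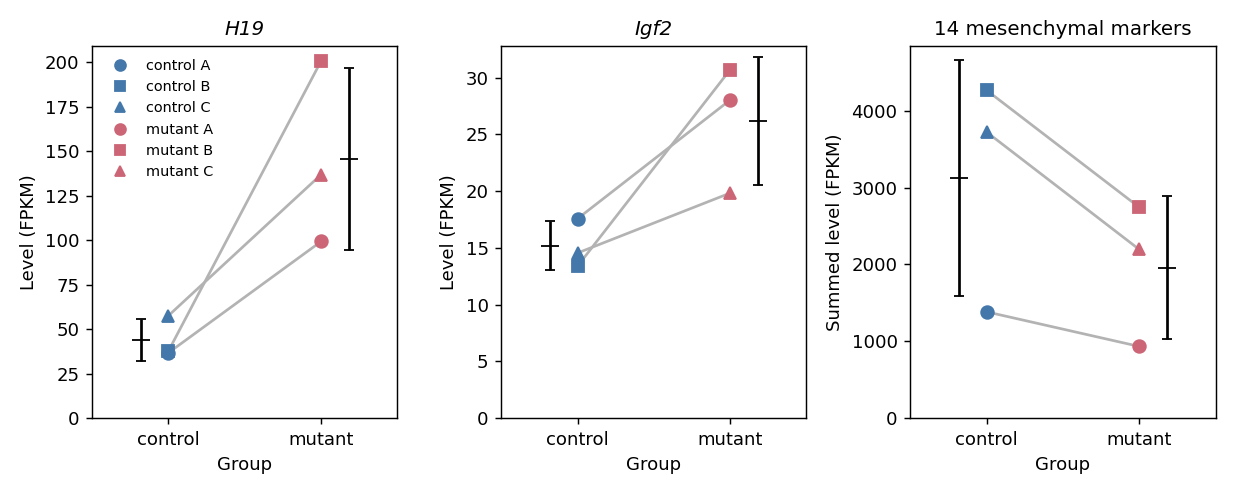
Levels of H19 and Igf2 (FPKM) and the summed level of 14 mesenchymal markers (FPKM) in control and mutant libraries; grey lines join the libraries of a pair, and black bars give the mean and SD of 3 libraries. Both genes are higher in the mutant within all 3 pairs (H19 means 44.1 and 146 FPKM, Igf2 means 15.2 and 26.2 FPKM), and the marker sum is lower within all 3.

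For the imprinted receptor and adaptor of the IGF2 signal, Igf2r and Grb10, the control and mutant libraries overlapped. Igf2r, the mannose 6-phosphate receptor that carries IGF2 to the lysosome and is expressed from the maternal copy in mice, measured 36.8, 40.1 and 45.4 FPKM in the controls against 34.1, 46 and 43.2 FPKM in the mutants. The means were 40.8 ± 4.3 and 41.1 ± 6.19 FPKM. Airn, the noncoding RNA that silences Igf2r on the paternal chromosome, overlaps it over 28396 bases of chromosome 17 on the opposite strand, without a shared exonic base in GENCODE M21. Airn measured 7.36, 10.3 and 7.67 FPKM in the controls against 12, 9.61 and 10.7 FPKM in the mutants. Its log2 fold change was 0.33 ± 0.15 (limma adjusted p = 0.64), with control B inside the range of the mutants. Grb10, an adaptor that dampens insulin and IGF1 receptor signalling, measured 70.4, 77.5 and 87 FPKM in the controls against 65.9, 73.6 and 79.5 FPKM in the mutants, lower within every pair by a ratio of 0.913 to 0.949.

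Around Igf2, a list of 14 receptors, adaptors, binding proteins and RNA-binding proteins had 12 rows tested and limma called 0 of them at an adjusted p of 0.05, with or without the pair as a block. At an unadjusted p under 0.05 there were 0 without the block and 5 (41.7%) with it, beside 8.1% and 12.3% of all rows. Those 5 were Igf2bp3, Igfbp3 and Igfbp4, with a higher mean in the mutant, and Igfbp5 and Igfbp6, with a lower one. The median log2 fold change of the 12 rows was -0.076, beside 0.021 over all tested rows. Without the block the lowest p was that of Igf2bp3, which binds Igf2 RNA, at 4.34 ± 1.21 and 6.06 ± 0.438 FPKM. The groups of 3 of the 12 rows did not overlap, namely Igf2bp3, the insulin receptor Insr and the IGF1 receptor Igf1r. Over all tested rows the mutants lay above the controls without overlap in 7.12% and below them in 6.57%. Insr measured 13.8, 14.4 and 14.2 FPKM in the controls against 11.9, 13.4 and 10.3 FPKM in the mutants, all lower (limma adjusted p = 0.655). Igf1r measured 15.9, 16.8 and 17.8 FPKM in the controls against 20.6, 18.8 and 18 FPKM in the mutants, all higher (limma adjusted p = 0.703). Igfbp4, an IGF binding protein, was higher within every pair, at 330, 335 and 455 FPKM in the controls against 404, 431 and 575 FPKM in the mutants, and its groups overlapped. Igfbp3, which binds IGFs outside the cell, measured 6.43, 4.07 and 6.4 FPKM in the controls against 9.29, 6.26 and 26.2 FPKM in the mutants, with mutant C apart from the rest.

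In the cluster on chromosome 12, Meg3 and Rian were lowest in pair A of both groups. Meg3, a long noncoding RNA of the maternal copy, measured 3.92, 10.6 and 15.6 FPKM in the controls against 3.72, 9.64 and 8 FPKM in the mutants. Both libraries of pair A lay below the other 4, and control C was highest. The log2 fold change was -0.36 ± 0.49 (limma adjusted p = 0.887), and it turned to 0.024 without control C and to 0.11 ± 0.25 with the mesenchymal covariate (limma adjusted p = 0.887). Its row also joins Mir1906-2 and Mir770. Rian, the next noncoding RNA and host of small nucleolar RNAs, starts 32215 bases on. It measured 1.27, 2.32 and 3.72 FPKM in the controls against 0.924, 2.78 and 1.62 FPKM in the mutants, again with pair A below the other 4 libraries. Mirg, a microRNA host at the end of the cluster, and Dlk1, a membrane protein of the paternal copy, had means of 0.195 and 0.519 FPKM. Dlk1, a gene of fetal and progenitor cells, measured 0.181, 0.292 and 0.755 FPKM in the controls against 0.514, 0.613 and 0.76 FPKM in the mutants.

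Nnat, which encodes the small membrane proteolipid neuronatin and is expressed from the paternal copy, was lower in the mutant within every pair. It measured 9.36, 21.2 and 24 FPKM in the controls against 6.28, 16.2 and 8.86 FPKM in the mutants, with ratios of 0.671, 0.763 and 0.369 within pairs. The groups overlapped. The log2 fold change was -0.74 ± 0.42 (limma adjusted p = 0.712, and 0.334 with the pair as a block), and with the mesenchymal covariate the log2 fold change was -0.31 ± 0.12. Leaving out 1 library moved it between -1.14 (without control A) and -0.46 (without mutant A). Plagl1, a zinc finger factor of the paternal copy that regulates other imprinted genes, measured 12.2, 13 and 22.3 FPKM in the controls against 11.9, 18.1 and 12.5 FPKM in the mutants, with both libraries of pair A lowest.

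Being lowest in pair A was common among the members and also among all rows. Both libraries of pair A lay below the other 4 in 10 of 28 members (35.7%) and in 22.7% of the tested rows. Besides Meg3, Rian and Plagl1, these were Igf2r, Grb10, Peg10, Peg12, Dcn, H13 and Nap1l4. Pair A was also the pair with the lowest mesenchymal sum in each group and the one whose description labels carry another prefix. The part of the mesenchymal markers in this pattern was not tested for any of the 10.

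The Peg3 cluster, near the start of chromosome 7, showed another order of libraries. Peg3, a zinc finger protein of the paternal copy, measured 67.1, 29.5 and 91.2 FPKM in the controls against 52.6, 67.6 and 136 FPKM in the mutants. Pair C was highest in both groups, control B was lowest, and the groups overlapped (log2 fold change 0.46 ± 0.48, limma adjusted p = 0.847). That fold change was 0.0055 without control B, 0.072 without mutant C, 0.75 without mutant A and 0.80 without control C. Zim1, a zinc finger gene of the maternal copy that lies 7351 bases from Peg3, measured 0.869, 0.513 and 3.2 FPKM in the controls against 2.53, 1.08 and 4.25 FPKM in the mutants. Zim1 was higher in the mutant within every pair, by ratios of 2.92, 2.12 and 1.33, and highest in pair C in both groups. Its log2 fold change was 0.57 ± 0.47 (limma adjusted p = 0.801, and 0.358 with the pair as a block). It came to 0.25 without mutant C, 0.27 without control B, 0.92 without mutant B and 1.01 without control C. Usp29, a deubiquitinase gene that starts beside Peg3, had a mean of 0.347 FPKM, from 0.0528 FPKM in control B to 0.571 FPKM in mutant C.

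Peg3, Zim1, Usp29 and Mest all had control B as their lowest library and, in each of them, mutant C as their highest. Both traits were about as common over all rows. Control B was lowest in 6 of 28 members (21.4%) and in 17.8% of the tested rows. Mutant C was highest in 7 of 28 (25%) and in 28.1% of the tested rows. Mest measured 300, 161 and 276 FPKM in the controls against 236, 300.5 and 314 FPKM in the mutants, so control B stood apart from the other 5 libraries. Both libraries of pair C, the pair with Y-linked transcripts, lay above the other 4 in 6 of 28 members (21.4%), namely Peg3, Zim1, Grb10, Peg10, Peg12 and Nap1l4, and in 7.99% of the tested rows. Sex and the other differences of pair C cannot be told apart with 1 male pair.

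**Figure D3:**
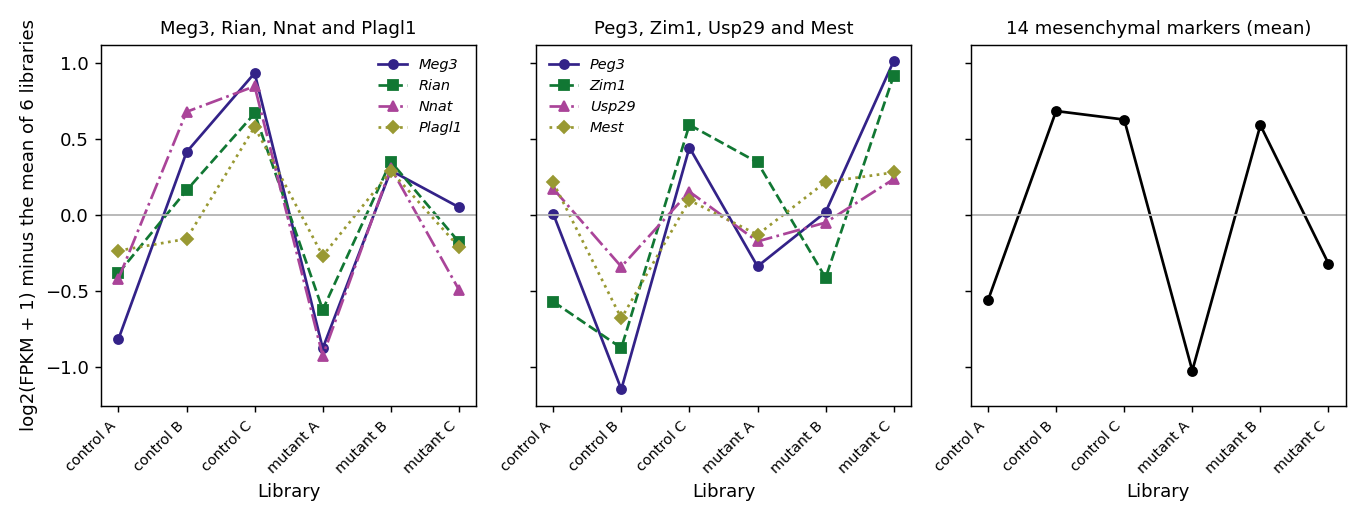
log2(FPKM + 1) of 8 members, minus the mean of the 6 libraries, in each library, with the mean of 14 mesenchymal markers on the same scale; the grouping of genes was chosen after their values were seen. Meg3, Rian, Nnat and Plagl1 are lowest in mutant A, as is the mean of the mesenchymal markers. Mutant A was lowest in 13 of 28 members (46.4%) and in 23.3% of all tested rows, so the genes shown are a choice. Peg3, Zim1, Usp29 and Mest are lowest in control B and highest in mutant C.

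The remaining cluster on chromosome 7 distal to Igf2 held 1 member whose groups did not overlap. Cd81, a tetraspanin imprinted in placenta, measured 340, 269.96 and 270.1 FPKM in the controls against 264, 237 and 245 FPKM in the mutants. Each mutant library lay below each control, though by a narrow margin. Nap1l4, a histone chaperone, was between 72.7 and 84.9 FPKM in all libraries. Kcnq1ot1, the noncoding RNA that silences the cluster on the paternal copy, had a mean of 0.175 FPKM. Phlda2, a regulator of placental growth, was above 0 only in control A, at 0.112 FPKM, and Ascl2, a placental transcription factor, only in mutant C, at 0.0295 FPKM.

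The Snrpn region and the Peg10 region each had members at very different levels. Ndn, a protein of the MAGE family, was at 29.5 ± 3.63 FPKM (control) and 29.3 ± 5.68 FPKM (mutant), whereas its neighbour Magel2, of the same family and 27050 bases away, had a mean of 0.0846 FPKM. The joined row of Snrpn, a splicing protein, and Snurf was at 3.72 ± 0.781 and 3.74 ± 0.496 FPKM, and Peg12 at 3.73 ± 0.812 and 4.07 ± 1.02 FPKM. Sgce, a sarcoglycan, was at 51.3 ± 6.44 and 44.5 ± 4.37 FPKM and was lower in the mutant within every pair, by ratios of 0.823 to 0.946. Peg10, which starts 101 bases from Sgce on the other strand, was at 1.88 ± 0.506 and 1.78 ± 0.335 FPKM. Ppp1r9a, an actin-binding protein that holds protein phosphatase 1, measured 6.45, 6.45 and 8.02 FPKM in the controls against 6.45, 5.79 and 4.25 FPKM in the mutants, and these met at 6.45 FPKM. Its log2 fold change was -0.30 ± 0.16 (limma adjusted p = 0.698), and -0.16 without mutant C.

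Members outside these clusters differed by small amounts. Gnas measured 720, 629 and 675 FPKM in the controls against 801, 682 and 777 FPKM in the mutants, higher within every pair by ratios of 1.08 to 1.15. Commd1, which acts in copper handling and NF-kB control, measured 56.5, 56.7 and 48.1 FPKM in the controls against 59.75, 59.9 and 65.6 FPKM in the mutants, with no overlap. The gene Zrsr1, a paralogue of a splicing factor subunit, lies inside Commd1 and was between 2.85 and 4.39 FPKM in all libraries; the 2 genes share 203 exonic bases in GENCODE M21, so some fragments cannot be assigned. H13, a peptidase of the endoplasmic reticulum membrane, was at 35.2 ± 3.22 and 31.5 ± 3.28 FPKM. Impact, a regulator of translation, was between 5.69 and 5.95 FPKM in the controls and at 6.04, 5.72 and 4.09 FPKM in the mutants. The amino acid transporter Slc38a4 was between 1.76 and 4.31 FPKM.

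Dcn, a matrix proteoglycan typical of fibroblasts and imprinted in placenta, measured 2.28, 7.26 and 4.48 FPKM in the controls against 4.26, 7.24 and 5.21 FPKM in the mutants. Gatm, an enzyme of creatine synthesis, was under 1 FPKM in all libraries, with controls of 0.173, 0.582 and 0.482 FPKM against mutants of 0.797, 0.766 and 0.754 FPKM. Its 3 mutant values were above its 3 control values, but it lay under the limit of 1 FPKM and was not tested in the main fit. Among the tested rows, 7.12% had the mutants above the controls without overlap. Zdbf2, a zinc finger gene, was at 0.957 ± 0.292 and 0.965 ± 0.217 FPKM.

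Over all 28 members, limma called 0 higher and 0 lower at the adjusted threshold of 0.05, against 0% of all rows higher and 0.137% lower (16 rows; with the pair as a block 6 rows, or 0.0513%, and again 0 members). At an unadjusted p under 0.05 the members were H19 and Igf2, 2 of 28 (7.14%), beside 8.1% of all rows. Both were higher in the mutant, beside 3.81% of all rows higher and 4.29% lower at that threshold. The mutant libraries lay above the controls without overlap in 3 members (10.7%; H19, Igf2 and Commd1), beside 7.12% of all rows, and below them in 1 (3.57%; Cd81), beside 6.57%. Of the 28, 14 had a higher and 14 a lower mean in the mutant, beside 54.6% and 45.4% of all rows. Within all 3 pairs 5 were higher (17.9%; H19, Igf2, Zim1, Gnas and Commd1) and 6 lower (21.4%; Meg3, Grb10, Sgce, Nnat, H13 and Cd81), beside 19.6% and 17.2%. Their median log2 fold change was -0.0071, beside 0.021 for all rows, and the median size of the fold change was 0.18, beside 0.12. A log2 fold change of at least 0.3 in size was found in 8 members (28.6%), beside 18.2% of all rows. The members' shares by direction of the mean and within pairs were thus near those of all rows, while larger changes were more frequent. No test was made over the list. With the pair as a block, 4 members were under an unadjusted p of 0.05 (H19, Igf2, Zim1 and Nnat), or 14.3%, beside 12.3% of all rows.

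**Figure D4:**
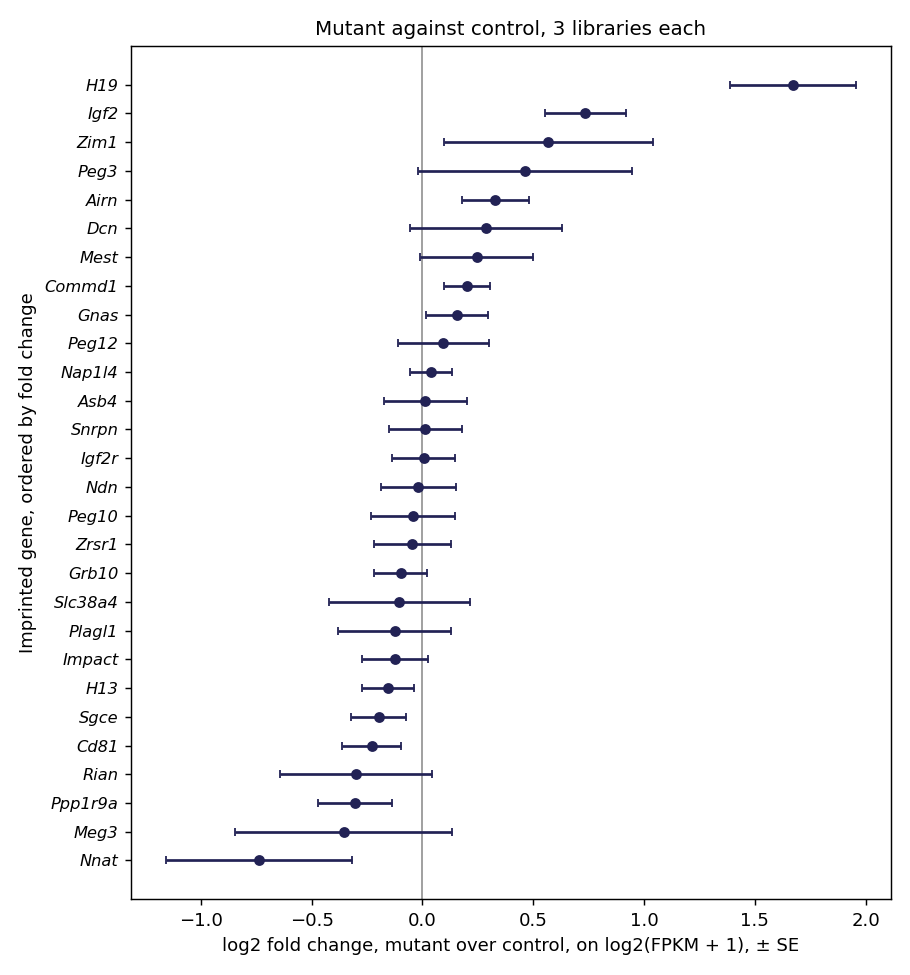
log2 fold change of mutant over control, on log2(FPKM + 1), with its SE, for the 28 imprinted genes with a mean of at least 1 FPKM, 3 libraries per group. H19 (1.67) and Igf2 (0.74) lie highest and Nnat (-0.74) lowest, and 20 of the 28 lie within 0.3 of 0. The other 8 (28.6%) stand beside 18.2% of all tested rows.

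The parental copy that is listed as active did not divide the members by direction. For some members that copy is known from another tissue, such as placenta for Cd81 and Dcn. Which copy was active in these cells was not measured. Of 13 tested members listed as maternally expressed, 7 had a higher and 6 a lower mean in the mutant, with a median log2 fold change of 0.0047. Of 14 listed as paternally expressed, 6 were higher and 8 lower, with a median of -0.031. Gnas, which has products of either copy, was left out of this split, and the split was made after the values were seen.

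A further list of 39 imprinted genes or neighbours of imprinted genes had 23 rows tested, of which limma called 0 higher and 1 lower. That row was Begain, a synaptic scaffold gene 384242 bases from Dlk1, imprinted in sheep, with a level of 7.54 ± 1.08 FPKM in the controls against 0.282 ± 0.177 FPKM in the mutants (log2 fold change -2.74 ± 0.17, limma adjusted p = 0.00331). Begain was listed with its result known, so this count is no independent evidence. The median of the list was -0.0095, with 11 rows higher and 12 lower. Pon3 and Pon2, lactonases near Peg10, were at 37.8 ± 2.39 and 29.3 ± 6.83 FPKM and at 87.8 ± 5.09 and 77.5 ± 1.94 FPKM. Cdkn1c, an inhibitor of the cell cycle beside Kcnq1ot1 and named after its values were seen, was at 19.9 ± 5.01 and 23.1 ± 6.23 FPKM.

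Genes that keep or read imprints were mostly higher in mean in the mutant. Of 30 such genes 27 were tested, 22 (81.5%) had a higher mean, beside 54.6% of all rows, and 5 a lower one, and the median log2 fold change was 0.15, beside 0.021 over all rows. Limma called 0 of them. An unadjusted p under 0.05 with a higher mean was reached by 3 (11.1%), beside 3.81% of all rows: the chromatin remodeller Hells, at 5.4 ± 1.55 and 9.73 ± 0.701 FPKM, Uhrf1, which brings the methyltransferase to newly copied DNA, at 13.5 ± 3.4 and 24.4 ± 6.21 FPKM, and the maintenance methyltransferase Dnmt1, at 31.6 ± 2.14 and 45.5 ± 9.62 FPKM. These 3 genes are also expressed with DNA replication in dividing cells. No gene of the list was lower at that threshold, so the share in either direction was also 11.1%, beside 8.1% of all rows. With the pair as a block 4 of the 27, all higher, were under an unadjusted p of 0.05 (14.8%), beside 12.3% of all rows. Suz12, a subunit of the Polycomb complex that methylates histone H3, was at 21.1 ± 1.45 and 24.4 ± 1.3 FPKM. Ctcf was at 33.6 ± 0.884 and 36.8 ± 1.38 FPKM, and was named here for its role at H19 and Igf2.

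The authors' deposited table gave a p-value for 34 of the 37 members and spreadsheet errors for the 3 that were at 0 in some library. Of those 34 in the authors' deposited table, 3 (8.82%) had a p under 0.05, beside 7.53% of its 14338 rows with a p. These were H19, with a log2 fold change of 1.70 (p = 0.0422) in the authors' deposited table, Gnas with 0.16 (p = 0.024) and Grb10 with -0.10 (p = 0.0259). Igf2 had a log2 fold change of 0.77 (p = 0.0736) in the authors' deposited table. The deposited p-values carry no adjustment. Adjusted by the Benjamini-Hochberg method over the 14338 rows, the p of H19 in the authors' deposited table became 0.655 (9455 further rows hold no p).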

How the data were processed

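Sequencing gave 6 RNA-seq libraries, 3 control and 3 mutant. Per the labels' protocols, 100 to 200 ng of total RNA was selected for poly(A) and read as 76-nt pairs, which were aligned to mm10. The submitters' processing notes name TopHat2 2.0.14 with Bowtie2 2.2.3 and also Cufflinks 2.2.1 with Cuffdiff. The authors deposited FPKM for each library, next to their own log2 fold change and p-value per row. Fragments per gene are not given, so count models could not be used.

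limma 3.58.1 in R 4.3.3 compared levels on log2(FPKM + 1), with an empirical Bayes trend. Rows with a mean of 1 FPKM or more, 11693 in all, were tested, and p-values were adjusted over them by the Benjamini-Hochberg method with a threshold of 0.05. The fit was tested on simulated data. This scale understates fold changes of low genes. The members, lists, tests and alternatives were chosen with earlier results of these data known. Full statistics were given for H19, Igf2 and members with a log2 fold change of at least 0.3 in size, and for the lists up to 4 genes of lowest p. Replicates are separate samples in the labels, which do not name animals, so p-values describe the spread between these samples. By Xist and Ddx3y the libraries of pair C came from other animals than those of A and B. Between A and B the spread may be technical.

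The pairing by letter was checked on deviations from the mean of each group. Their correlation across rows was 0.36 in pair A, 0.27 in pair B and 0.19 in pair C, and 0.1 was the limit. Pairs therefore rest on the title letters together with these correlations. The authors' deposited p-values of H19, Gnas and Grb10 are also those of a paired t-test by letter on log2 FPKM. The description labels of pair A carry unlike numbers, and their prefix differs from that of pairs B and C. The main fit had no block. Alternatives changed the pseudocount, the filter, the scaling or the variance model, added the pair block, a batch term or a mesenchymal covariate, kept pairs B and C only, or left out each library. Sequences are from RefSeq on GRCm38.p6, and exons from GENCODE M21. One entry of a marker list is not reported here.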

Additional observations from a re-analysis of the deposited data

How the results depend on the processing

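No member was called under any of the 17 alternatives, as in the main fit (limma, 0 of 28, with H19 and Igf2 at an unadjusted p under 0.05). Without a filter on the mean all 37 members were fitted, and again 0 were called. The count of all rows called, 16 in the main fit, was 10 with a mean of at least 5 FPKM, 6 with the replicate block, 6 with pairs B and C only, and 6 to 10 when any 1 of the 6 libraries was left out. Fewer rows or libraries entered all of these but the block, where fewer residual degrees of freedom remained. The 8 members with full statistics gave 135 alternative fold changes, and 133 kept their direction. The 2 that turned were of Meg3: 0.11 with the mesenchymal covariate, and without 1 library it ranged from -0.85 to 0.024, the highest without control C; the cause was not tested. H19 ranged from 1.41 to 1.92 (limma adjusted p from 0.0558 to 0.553) and Igf2 from 0.61 to 0.92 (0.214 to 0.932). Rescaling moved the median of all rows by at most -0.04 (log2). The paired fit changed no call of a member. Depth is known only relative to control A, so low members such as Phlda2, Ascl2 and Mirg are listed as given.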
